A study of Mus musculus with 191 samples.

Results

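The Period genes Per1, Per2 and Per3 and the cryptochrome genes Cry1 and Cry2 encode the repressors of the mammalian circadian clock. They were taken by name from the deposited expression tables of 5 mouse tissues, and make up 5 of the 21204 genes listed in those tables. All 5 genes were present in all 5 tables and had a mean value of at least 1 in each tissue, the minimum for testing. Whole-tissue RNA had been sequenced around the day to set mice given an antibody or a toxin meant to deplete neutrophils, or carrying a floxed clock gene with a neutrophil Cre, against control mice.

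In bone marrow, gut, liver and lung, wild-type C57BL/6 mice had been injected with anti-Ly6G (clone 1A8), an antibody against a neutrophil surface marker, or with IgG. Both were given at 3 µg per g for 2 days. Each tissue had 18 anti-Ly6G and 18 IgG libraries, 3 at each labelled Zeitgeber time (ZT, hours after lights on) 1, 5, 9, 13, 17 and 21. Ear skin came from Mrp8CRE; iDTR mice (16 libraries), Mrp8CRE; Bmal1-flox mice (15 libraries) and mice labelled wild-type C57BL/6 controls (16 libraries), with 1 mouse per genotype at each of 16 times and no Bmal1-flox library at ZT 16. The Mrp8 promoter drives Cre mainly in neutrophils and other myeloid cells. In iDTR mice the Cre is meant to switch on a diphtheria toxin receptor, and in Bmal1-flox mice to delete Arntl, the gene for the clock activator BMAL1. The iDTR and control mice received diphtheria toxin at 10 µg per kg for 2 days, and the Bmal1-flox mice were labelled as untreated, so that genotype and toxin cannot be told apart when Bmal1-flox is set against control. Ages were not given in the labels used here, and the labels do not say which mice came from cabinets with a light cycle inverted by 12 h.

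In mammals, BMAL1 pairs with CLOCK or NPAS2 and binds E-boxes in DNA to switch on the Period and cryptochrome genes, among others. The PER and CRY proteins then enter the nucleus together and shut their own activators down, and their timed destruction lets the cycle start again. Per1 and Per2 also respond quickly to outside signals such as glucocorticoid hormones, which carry timing from the brain to peripheral tissues. In liver the loop times much of daily metabolism.

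The promoter sequences are shown because the members' clock inputs are read there, and because the members differ in them. RefSeq entries (GRCm38.p6) covering the 250 bases before an annotated start were matched for 4 of the 5 genes, with 2 entries for Per1. Motifs were searched on both strands, and capitals mark the matches. One was the E-box, CACGTG, and its E′ variant ends in TT in place of TG, shown here as its reverse complement. The others were the D-box TTATGTAA and a relaxed D-box TTATGNAA that includes it. The E-box is bound by the BMAL1 pairs, and the D-box by the DBP, TEF, HLF and NFIL3 proteins.
Per1 promoter, chr11:69098699-69098948, plus strand: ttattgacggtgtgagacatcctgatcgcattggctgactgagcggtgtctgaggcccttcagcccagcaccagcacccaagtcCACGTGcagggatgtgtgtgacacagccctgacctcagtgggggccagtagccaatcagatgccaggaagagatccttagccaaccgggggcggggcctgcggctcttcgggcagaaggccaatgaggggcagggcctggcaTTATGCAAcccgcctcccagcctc
Per3 promoter, chr4:151044666-151044915, minus strand: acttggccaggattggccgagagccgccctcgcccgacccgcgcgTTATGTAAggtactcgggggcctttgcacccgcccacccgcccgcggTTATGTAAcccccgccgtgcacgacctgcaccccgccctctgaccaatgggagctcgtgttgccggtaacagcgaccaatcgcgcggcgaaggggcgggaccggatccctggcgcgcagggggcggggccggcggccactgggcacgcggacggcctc
Cry1 promoter, chr10:85185055-85185304, minus strand: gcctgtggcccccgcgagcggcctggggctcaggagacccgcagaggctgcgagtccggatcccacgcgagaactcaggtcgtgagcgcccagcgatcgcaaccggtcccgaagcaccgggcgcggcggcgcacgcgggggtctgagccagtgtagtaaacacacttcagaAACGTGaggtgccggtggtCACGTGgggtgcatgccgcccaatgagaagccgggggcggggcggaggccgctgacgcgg
Cry2 promoter, chr2:92434070-92434319, minus strand: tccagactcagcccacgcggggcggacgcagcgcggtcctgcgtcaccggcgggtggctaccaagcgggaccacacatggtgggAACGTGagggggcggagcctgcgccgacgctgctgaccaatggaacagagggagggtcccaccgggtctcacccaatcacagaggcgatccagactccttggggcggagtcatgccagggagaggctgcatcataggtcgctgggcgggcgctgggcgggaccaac

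The Per3 promoter held 2 D-boxes, starting 205 and 158 bases before the start, a motif found in 0.819% of the 32851 mouse promoters of the same length. The printed Per1 promoter held an E-box 166 bases before the start and a relaxed D-box 24 bases before it, while the second Per1 entry held none of the motifs. The Cry1 promoter held an E-box at 60 bases and an E′-box at 79 bases before the start, and the Cry2 promoter an E′-box at 166 bases. Over all promoters the E-box was found in 6.02%, the E′-box in 3.85% and the relaxed D-box in 3.07%. No member entry held the cyclic AMP response element TGACGTCA (1.55% of promoters), the ROR element (0.177%) or the glucocorticoid receptor element (0.00913%) in these windows. These are matches of letters, and no binding was measured.

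On GRCm38, Per1 (ENSMUSG00000020893) lies on chromosome 11 at 69095217 to 69109960 and Per2 (ENSMUSG00000055866) on chromosome 1 at 91415982 to 91459324. Per3 (ENSMUSG00000028957) lies on chromosome 4 at 151003652 to 151044665, within the span of Camta1, with which it shares 0 exonic bases. Cry1 (ENSMUSG00000020038) lies on chromosome 10 at 85131700 to 85185064. Cry2 (ENSMUSG00000068742) lies on chromosome 2 at 92403646 to 92434043, and 295 of its exonic bases are also exons of D930015M05Rik on the other strand. The library kit does not mark strand, so reads of those bases cannot be assigned to either gene.

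The 191 libraries held between 7.683 M and 30.89 M recovered reads (M, mega), and 1 read was worth between 0.03193 and 0.1306 units of the deposited scale. Every tissue carried its defining markers. Each value below is 1 library, taken as 1 mouse, and in whole tissue a change in the number of cells of a type cannot be told apart from a change in RNA per cell. The bone marrow, gut and liver titles share their numbers, and the labels used here do not say whether same-numbered libraries came from the same mice, so results of these tissues may share mice. Summed neutrophil markers were not lower with anti-Ly6G in bone marrow or liver. Their median was 34802 with anti-Ly6G and 30623 with IgG in bone marrow (16 genes), 158.7 and 180.5 in gut (6 genes listed), and 13.4 and 5.79 in liver (7 genes listed). In skin the median was 88.1 in iDTR, 41.7 in Bmal1-flox and 38.6 in control libraries (13 genes listed). Of the liver genes only Lcn2, Csf3r and Cxcr2 reached the minimum for testing. Their log2 differences with anti-Ly6G were 1.48, 0.30 and -0.071. These sums of transcripts are not counts of neutrophils. Gt(ROSA)26Sor, the locus that carries the iDTR allele, had medians of 0.604 in iDTR, 26.3 in Bmal1-flox and 0.798 in the libraries labelled control, whose highest value was 1.83. The libraries labelled wild-type control were therefore low at that locus, like the iDTR libraries. Arntl itself, read over whole skin, had medians of 46.9 in Bmal1-flox and 38.5 in control libraries. Below, a library is numbered by its place within its group in order of deposit, or by its title number in skin. Title numbers of the other tissues are named as such. The gut anti-Ly6G libraries numbered 1 and 6 held male gland transcripts up to a sum of 21676, and 1 Bmal1-flox skin library held liver transcripts (1439.5). In lung, some libraries differed widely from the others of their labelled group, and lung is described separately.

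Expressed per kilobase of annotated exon, to rank genes within a tissue, the leading member differed from tissue to tissue. The tissues were normalised separately, so these levels are not compared between tissues. In bone marrow Cry1 and Per1 led, at 6.58 ± 1.26 and 5.85 ± 2.99 per kb with anti-Ly6G and 6.01 ± 0.597 and 3.21 ± 0.735 per kb with IgG (SD, n = 18 each). Per3 and Cry2 were lowest there, at 2.05 ± 0.346 and 2.05 ± 0.281 per kb with anti-Ly6G and 1.81 ± 0.349 and 2.05 ± 0.261 per kb with IgG. In gut Per2 led at 17.7 ± 11.1 per kb with anti-Ly6G and 17.5 ± 11.9 per kb with IgG, and Per3 was lowest at 5.51 ± 2.96 and 5.59 ± 2.58 per kb. In liver Cry1 (8.48 ± 5.199 and 8.02 ± 5.03 per kb) and Per2 (7.49 ± 4.85 and 7.76 ± 5.96 per kb) led, in the same order of treatments. In ear skin Per1 led in all genotypes, at 38.5 ± 13.4 per kb in iDTR, 23.2 ± 8.96 per kb in Bmal1-flox and 26.9 ± 10.7 per kb in control libraries, and Per2 was lowest at 5.92 ± 1.98, 6.06 ± 2.63 and 7.34 ± 3.21 per kb. The SDs include the daily cycle, so neighbouring genes in these orders overlapped within it in gut and liver. The orders also depend on the annotated exon length, 9608 bases for Per3 and 3340 for Cry1, which need not be that of the expressed transcripts. Undivided, the gut IgG mean was 53.7 for Per3 and 36.7 for Cry1.

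All 5 genes cycled in liver and in gut under both treatments, by the F test of a fitted 24 h wave in limma with Benjamini-Hochberg adjustment over all tested genes and a threshold of 0.05. Rhythms were common in these tissues, with 34.7% of tested genes passing in liver with anti-Ly6G and 42.9% with IgG, and 24.6% and 33.6% in gut. Of the 12504 genes tested in liver, Per2 and Cry1 were nonetheless among the lowest p-values, at ranks 8 and 9 with anti-Ly6G and 5 and 9 with IgG.

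**Figure D1:**
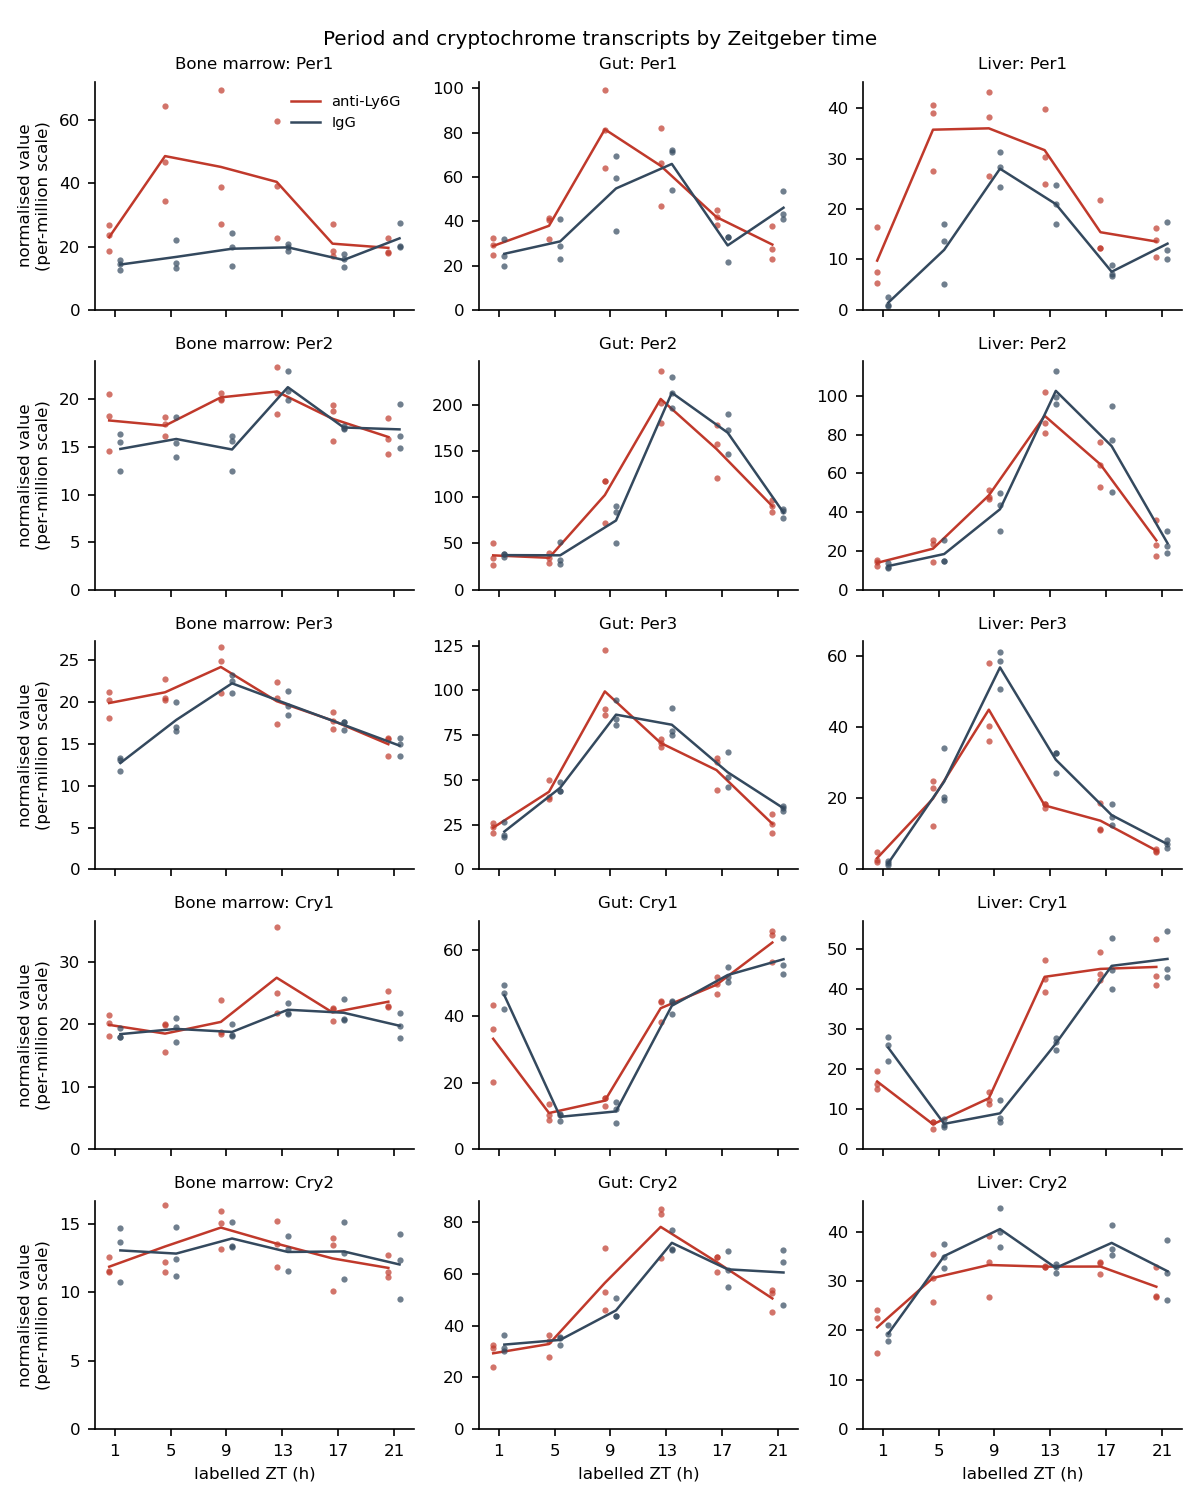
Normalised values on the deposited scale (vertical axes, starting at 0) of the 5 genes in bone marrow, gut and liver against labelled ZT in hours. Each point is 1 library and lines join the means of 3 libraries; red is anti-Ly6G and dark blue is IgG. In bone marrow the mean of Per1 with anti-Ly6G stands above that with IgG from ZT 1 to ZT 17.

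Per3, the Period gene least needed for rhythmicity in mice, had the widest swing in liver. Its 3 liver libraries at ZT 9 read 36.2, 58.0 and 40.4 with anti-Ly6G and 58.5, 50.5 and 61.1 with IgG. At ZT 1 they read 2.23, 2.58 and 4.78 with anti-Ly6G and 1.696, 2.32 and 1.39 with IgG. Every ZT 9 library was thus above every ZT 1 library, and the treatments overlapped at both times. The fitted peak-to-trough fold was 7.82 with anti-Ly6G (adjusted p = 2.1e-06) and 12.8 with IgG (adjusted p = 2.76e-08). In gut the fold was 4.05 (adjusted p = 1.95e-10) with anti-Ly6G and 3.70 (adjusted p = 8.26e-10) with IgG.

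Per2, whose loss alone shortens or ends behavioural rhythms in mice, peaked later. In liver at ZT 13 it read 86.0, 80.8 and 102 with anti-Ly6G and 95.7, 113 and 99.1 with IgG, against 14.2, 12.3 and 15.0 with anti-Ly6G and 11.04, 13.6 and 11.9 with IgG at ZT 1. The treatments overlapped at ZT 13 and at ZT 1. The fold was 6.13 with anti-Ly6G (adjusted p = 6.14e-12) and 7.82 with IgG (adjusted p = 2.16e-13) in liver. In gut it was 6.32 (adjusted p = 8.74e-12) and 6.52 (adjusted p = 5.21e-12) in the same order.

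Per1 had a lower amplitude than its paralogues in gut and liver. Its fitted fold in liver was 3.69 with anti-Ly6G (adjusted p = 0.0067) and 5.71 with IgG (adjusted p = 0.000234). In gut it was 2.79 with anti-Ly6G (adjusted p = 0.000185) and 1.95 with IgG (adjusted p = 0.0125). The IgG call was lost without ZT 1 (adjusted p = 0.199) or ZT 13 (adjusted p = 0.317).

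Cry1, the stronger transcriptional repressor of the cryptochromes, was the last to peak. In liver at ZT 21 it read 43.3, 41.01 and 52.5 with anti-Ly6G and 45.2, 54.6 and 43.1 with IgG, while at ZT 5 it read 6.94, 6.76 and 5.08 with anti-Ly6G and 5.47, 6.10 and 7.51 with IgG. The 2 times did not overlap under either treatment. The fold in liver was 7.04 with anti-Ly6G (adjusted p = 1.11e-11) and 7.38 with IgG (adjusted p = 5.44e-12), and in gut 5.27 (adjusted p = 1.84e-07) and 6.25 (adjusted p = 2.88e-08).

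Cry2, the other cryptochrome, had a strong wave in gut and a shallow one in liver. Its gut fold was 2.60 with anti-Ly6G (adjusted p = 7.25e-09) and 2.19 with IgG (adjusted p = 3.46e-07). Its liver fold was 1.47 with anti-Ly6G (adjusted p = 0.0329) and 1.57 with IgG (adjusted p = 0.00834). The liver libraries at ZT 1 read 15.3, 22.5 and 24.2 with anti-Ly6G and 17.8, 19.3 and 21.0 with IgG, and without ZT 1 the adjusted p was 0.399 with anti-Ly6G and 0.425 with IgG. With anti-Ly6G the liver call was also lost when the library numbered 1, 2, 3 or 8 was left out (adjusted p up to 0.152).

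Bone marrow showed far less cycling of the 5 genes. With anti-Ly6G, Per1 and Per3 passed, against 0.406% of tested genes. With IgG only Per3 passed, against 1.62% of tested genes. Per3 had an amplitude (the log2 distance from the daily mean to the peak) of 0.27 with anti-Ly6G (SE 0.0444; adjusted p = 0.00485) and 0.33 with IgG (SE 0.0444; adjusted p = 8.34e-05). Per1 had an amplitude of 0.68 with anti-Ly6G (SE 0.119; adjusted p = 0.0085), while with IgG it was 0.11 (SE 0.119; adjusted p = 0.853). Per2, Cry1 and Cry2 did not pass under either treatment, with amplitudes between 0.067 and 0.19. At an unadjusted p under 0.05 there were 5 of 5 members with anti-Ly6G and 2 of 5 with IgG. By the p-value with anti-Ly6G, Per2, Cry1 and Cry2 stood at ranks 1220, 305 and 1717 of 14289 tested genes. With fewer sampled times, the anti-Ly6G amplitude of Per1 was 0.60 without ZT 5 (adjusted p = 0.0603) and 0.73 without ZT 21 (adjusted p = 0.0904), and neither passed. That of Per3 was 0.24 without ZT 9 (adjusted p = 0.132) and 0.20 without ZT 21 (adjusted p = 0.244), and neither passed.

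In ear skin, Per2, Per3, Cry1 and Cry2 passed in iDTR, against 10.9% of tested genes, and Per2, Per3 and Cry1 passed in Bmal1-flox (0.326% of tested genes) and in control (0.383%). Per2 had the deepest wave, with a fold of 2.19 in iDTR (adjusted p = 0.000321), 3.22 in Bmal1-flox (adjusted p = 5.77e-07) and 2.91 in control libraries (adjusted p = 1.83e-06). Per3 had folds of 1.52 in iDTR (adjusted p = 0.00349), 2.44 in Bmal1-flox (adjusted p = 2.65e-08) and 1.87 in control libraries (adjusted p = 6.37e-05). Cry1 had folds of 1.48 in iDTR (adjusted p = 0.0253), 1.95 in Bmal1-flox (adjusted p = 0.000746) and 2.08 in control libraries (adjusted p = 8.72e-05). The Cry1 call in iDTR skin was lost without the library numbered 3, 10, 11, 12 or 16 (adjusted p between 0.0534 and 0.12). Cry2 had a fold of 1.53 in iDTR (adjusted p = 0.00173), 1.23 in Bmal1-flox (adjusted p = 0.608) and 1.33 in control libraries (adjusted p = 0.245). Per1 did not pass in any skin group, with adjusted p of 0.0845 in iDTR, 0.486 in Bmal1-flox and 0.612 in control libraries. None of the 5 genes had a rhythm in iDTR skin that differed from control by the F test of the wave terms, against 0.144% of tested genes, and 1 of 5 had an unadjusted p under 0.05 (Cry1, p = 0.0362). For Bmal1-flox against control it was 0 of 5 at an unadjusted p under 0.05, and 0% of tested genes passed. Over all 15946 tested genes, 2430 had an unadjusted p under 0.05 for iDTR against control and 563 for Bmal1-flox against control. With limma's voom weights the count of members was 0 in both comparisons.

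In every group of gut, liver and skin the fitted peaks of Per1 and Per3 came before that of Per2, and Cry1 came last, while the place of Cry2 varied. In gut Per3 peaked at 11.2 ± 0.310 h with anti-Ly6G and 11.7 ± 0.331 h with IgG, Per2 at 14.7 ± 0.272 and 15.1 ± 0.268 h, and Cry1 at 18.5 ± 0.427 and 19.1 ± 0.388 h (SE). In liver Per3 peaked at 10.3 ± 0.506 h with anti-Ly6G and 10.8 ± 0.409 h with IgG, Per2 at 13.5 ± 0.272 and 13.9 ± 0.24 h, and Cry1 at 17.4 ± 0.279 and 18.8 ± 0.272 h. In skin Per2 peaked at 14 ± 0.633 h in iDTR, 14.2 ± 0.43 h in Bmal1-flox and 14.5 ± 0.464 h in control libraries.

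**Figure D2:**
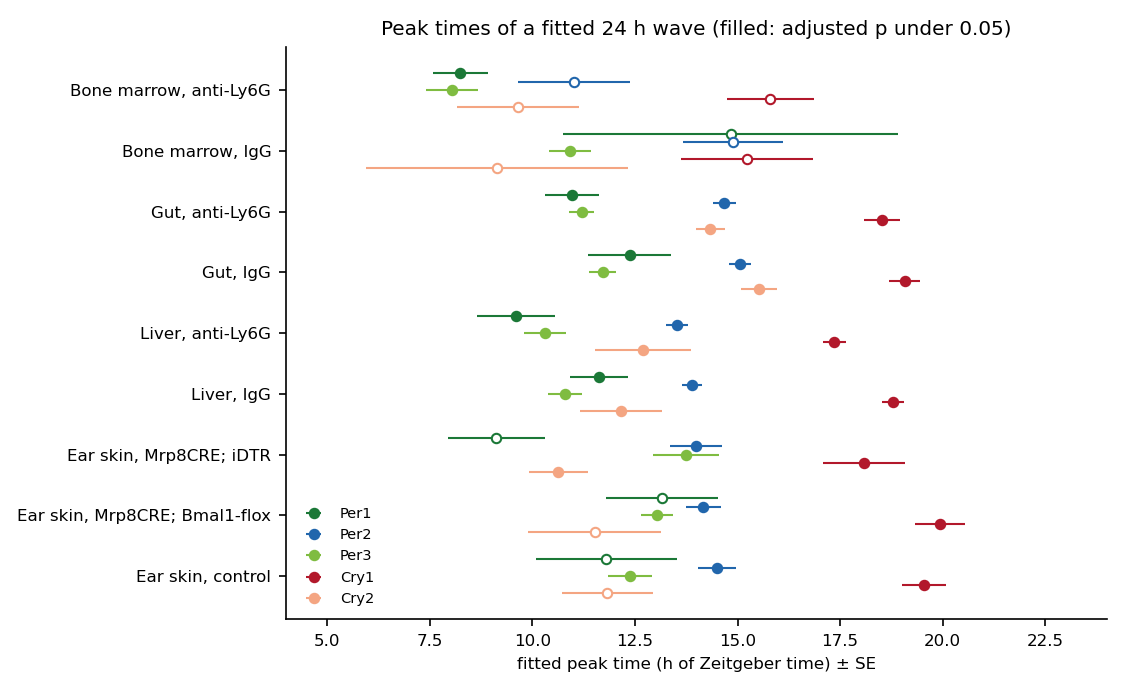
Fitted peak times in hours of ZT (horizontal axis) with SE bars for the 5 genes, 1 row per tissue and group; filled points had a rhythm at an adjusted p under 0.05 and open points did not. In gut, liver and skin Cry1 lies to the right of Per2, by 3.83 h to 5.76 h, and in bone marrow most points are open.

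The gap from Per2 to Cry1 was measured within the same libraries. In gut it was 3.84 h with anti-Ly6G (95% interval 2.86 to 4.82 h) and 4.01 h with IgG (3.10 to 4.93 h). In liver it was 3.83 h with anti-Ly6G (2.99 to 4.67 h) and 4.90 h with IgG (4.11 to 5.68 h). In skin it was 4.08 h in iDTR (1.96 to 6.21 h), 5.76 h in Bmal1-flox (4.19 to 7.34 h) and 5.06 h in control libraries (3.68 to 6.43 h). All of these intervals lay above 0, and those of the compared groups overlapped. The gap from Per2 to Per3 was -3.48 h with anti-Ly6G and -3.34 h with IgG in gut, and -3.21 h with anti-Ly6G and -3.10 h with IgG in liver, with intervals below 0, so that Per3 was the earlier. In skin Per3 stood closer to Per2, with gaps of -0.26 h in iDTR (-2.22 to 1.71 h), -1.12 h in Bmal1-flox (-2.24 to -0.0068 h) and -2.11 h in control libraries (-3.48 to -0.74 h).

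The question of the antibody comparison was whether the daily programme of a tissue differs when mice have been given anti-Ly6G. In bone marrow and in liver, Per1 rose with anti-Ly6G. In bone marrow Per3 rose as well, by a small amount, and no Period or cryptochrome gene passed the test in gut. The test was limma on log2(value + 1) with ZT as a factor, adjusted over all tested genes of the tissue.

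Bone marrow Per1 ranged from 17.2 to 69.4 with a median of 26.996 with anti-Ly6G, against 12.7 to 27.6 with a median of 18.1 with IgG. The highest anti-Ly6G values were at ZT 5, 9 and 13, and the groups overlapped below 27.6. Means were 32.96 ± 16.8 with anti-Ly6G and 18.1 ± 4.14 with IgG (SD, n = 18 each). The difference was 1.64-fold (log2 0.72, SE 0.139; adjusted p = 0.000403), with a higher mean at 5 of 6 ZT. Of all tested bone marrow genes 9.95% passed as higher. The adjusted p stayed between 9.81e-05 and 0.00472 over the alternative settings and between 0.000156 and 0.000886 when each library was left out.

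Bone marrow Per3 ranged from 13.6 to 26.5 with a median of 20.3 with anti-Ly6G, against 11.7 to 23.2 with a median of 17.3 with IgG. The groups overlapped widely. The difference was 1.13-fold (log2 0.17, SE 0.0508; adjusted p = 0.0171), with a higher mean at 6 of 6 ZT. It did not pass without ZT 1 (log2 0.084; adjusted p = 0.241), without ZT 5 (0.16; adjusted p = 0.0526) or with no time term (0.17; adjusted p = 0.149). Per2 (log2 0.13; adjusted p = 0.108), Cry1 (0.11; adjusted p = 0.135) and Cry2 (-0.0013; adjusted p = 0.991) did not pass, although Per2 did without the IgG library numbered 17 (adjusted p = 0.0476).

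Liver Per1 ranged from 5.38 to 43.2 with a median of 23.4 with anti-Ly6G, against 0.727 to 31.3 with a median of 12.8 with IgG. The lowest IgG libraries were those of ZT 1, below every anti-Ly6G library. Means were 23.7 ± 12.6 with anti-Ly6G and 13.8 ± 9.43 with IgG (SD, n = 18 each). The difference was 1.90-fold (log2 0.93, SE 0.176; adjusted p = 0.00741), with a higher mean at 6 of 6 ZT and 0.776% of tested liver genes passing as higher. It did not pass when ZT was left out of the model (adjusted p = 0.394) or replaced by a 24 h wave (adjusted p = 0.0543). The other liver members did not pass: Per2 was at log2 0.051 (adjusted p = 0.87), Per3 at -0.23 (adjusted p = 0.359), Cry1 at 0.087 (adjusted p = 0.737) and Cry2 at -0.12 (adjusted p = 0.334).

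**Figure D3:**
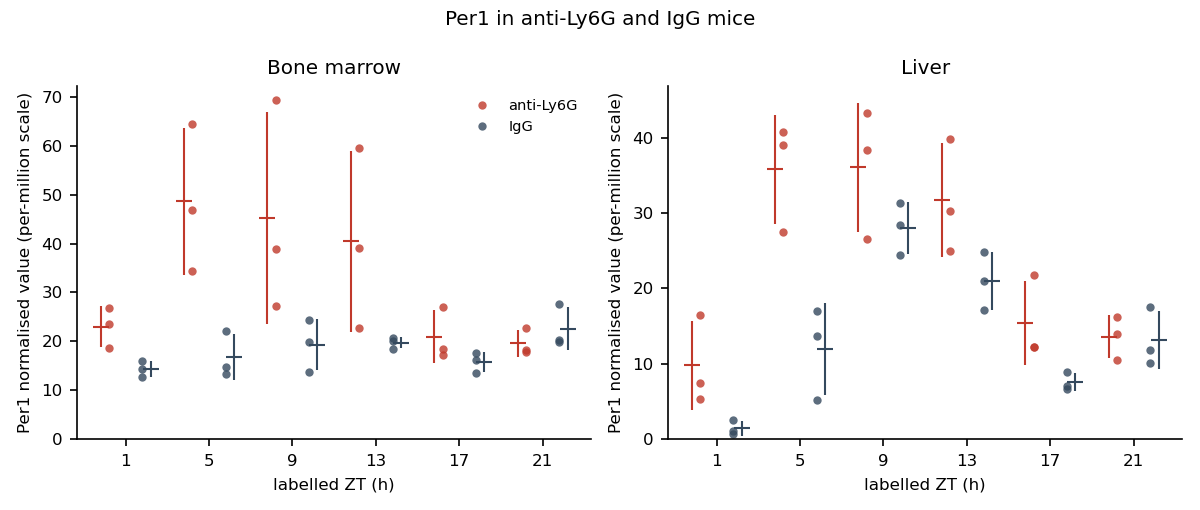
Per1 normalised values on the deposited scale (vertical axes, starting at 0) in bone marrow and liver against labelled ZT in hours. Points are libraries, and dashes with bars are the mean and SD of 3 libraries; red is anti-Ly6G and dark blue is IgG. At ZT 5 all anti-Ly6G libraries lie above all IgG libraries in both tissues, and at ZT 21 the groups overlap.

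In gut all 5 genes were within 0.16 log2 of IgG. Per1 averaged 47.5 ± 22.0 with anti-Ly6G and 42.0 ± 17.5 with IgG (SD, n = 18 each), a log2 difference of 0.16 (95% interval -0.073 to 0.39; adjusted p = 0.571). Per2 was at 0.038, Per3 at -0.055, Cry1 at -0.0035 and Cry2 at -0.0035, with adjusted p between 0.764 and 0.991. The count was 0 of 5 by limma, by limma with voom weights and at an unadjusted p under 0.05, and 0.0132% of tested gut genes passed. The intervals of the log2 difference were -0.14 to 0.22 for Per2 and -0.13 to 0.12 for Cry2.

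At single times, Per1 passed at ZT 5 in bone marrow and at ZT 1 and ZT 5 in liver. Whether the libraries of a time overlapped is given as a description, and the share of all genes that separated was not counted. In bone marrow at ZT 5 Per1 read 34.4, 46.9 and 64.5 with anti-Ly6G, against 13.3, 14.8 and 22.1 with IgG. The groups did not overlap, the log2 difference was 1.47 (SE 0.280; adjusted p = 0.00969), and 0.441% of tested genes passed at that time. Without the IgG library numbered 4 the adjusted p was 0.0745, and without the anti-Ly6G library numbered 6 it was 0.0784.

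At ZT 9 bone marrow Per1 read 27.2, 69.4 and 39.0 with anti-Ly6G, against 24.3, 13.8 and 19.8 with IgG (log2 1.12; adjusted p = 0.105; 0.133% of genes passed). At ZT 13 it read 59.6, 22.7 and 39.1 with anti-Ly6G, against 20.002, 18.5 and 20.7 with IgG (log2 0.90; adjusted p = 0.0504; 6.15%). The groups did not overlap at either time, and neither passed. At ZT 9 the adjusted p fell under the threshold without the anti-Ly6G library numbered 7 (0.0406) or 10 (0.0472), and at ZT 13 it did so without any 1 of 9 libraries. At ZT 17 and ZT 21 Per1 differed by log2 0.37 and -0.19, where 0.014% and 0.147% of genes passed, and no member passed. Bone marrow Per2 did not overlap at ZT 9 either, with 19.9, 20.7 and 20.008 with anti-Ly6G against 15.6, 12.5 and 16.1 with IgG (log2 0.44; adjusted p = 0.144). In limma 2 of 5 members had an unadjusted p under 0.05 at ZT 9, 2 at ZT 13, 0 at ZT 17 and 0 at ZT 21, and with voom weights 0 were called at these times.

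Bone marrow Per3 passed at ZT 1 with 20.3, 18.1 and 21.2 with anti-Ly6G, against 13.1, 11.7 and 13.3 with IgG. Every anti-Ly6G library was above every IgG library. The log2 difference was 0.61 (SE 0.0966; adjusted p = 0.00453), and 1.15% of genes passed. It was 0.24 at ZT 5 (adjusted p = 0.24), and from ZT 9 to ZT 21 it lay between 0.015 and 0.11.

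In liver at ZT 1 Per1 read 5.38, 7.46 and 16.5 with anti-Ly6G, against 0.727, 1.05 and 2.53 with IgG. The groups did not overlap and the log2 difference was 2.08 (SE 0.336; adjusted p = 0.0112). Per1 was the only one of 12504 genes called at that time (0.008%). It did not pass with a pseudocount of 5 (log2 1.14; adjusted p = 0.253) or with voom weights (2.88; adjusted p = 0.497). Nor did it pass without the IgG library numbered 1 (1.87; adjusted p = 0.221), the IgG library numbered 2 (1.99; adjusted p = 0.179) or the anti-Ly6G library numbered 3 (1.66; adjusted p = 0.275).

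At ZT 5 liver Per1 read 27.5, 39.1 and 40.8 with anti-Ly6G, against 5.15, 13.6 and 17.0 with IgG. The groups did not overlap, the log2 difference was 1.63 (SE 0.336; adjusted p = 0.0366) and 0.272% of genes passed. The adjusted p was 0.301 or 0.0641 without the IgG library numbered 4 or 5, and 0.177 or 0.168 without the anti-Ly6G library numbered 5 or 6. From ZT 9 to ZT 21 the log2 differences of Per1 were 0.33, 0.56, 0.90 and 0.058, and none passed, with 0.016% of genes called at ZT 9, 0.08% at ZT 13, 0.016% at ZT 17 and 0.08% at ZT 21. At an unadjusted p under 0.05 there were 2 members at ZT 9, 2 at ZT 13, 1 at ZT 17 and 0 at ZT 21, and voom weights called 1 at ZT 13 and 0 at the other times.

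Liver Cry1 had differences of opposite sign at ZT 1 and ZT 13 and passed at neither. At ZT 13 it read 39.4, 47.3 and 42.7 with anti-Ly6G, against 27.7, 26.9 and 24.7 with IgG, a log2 difference of 0.68 (SE 0.156; adjusted p = 0.0611). At ZT 1 it read 19.5, 16.2 and 15.2 with anti-Ly6G, against 22.0, 28.1 and 26.1 with IgG (log2 -0.56; adjusted p = 0.45). The groups did not overlap at either time. At ZT 13 the adjusted p was 0.0364 with voom weights, 0.0436 with a pseudocount of 5, and 0.0355 without the IgG library numbered 7. Liver Per3 at ZT 13 read 17.2, 18.5 and 18.3 with anti-Ly6G, against 27.01, 32.7 and 32.8 with IgG. All anti-Ly6G libraries were lower there (log2 -0.74), without passing (adjusted p = 0.18).

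In gut no member passed at any time, where 0.0264% of genes passed at ZT 1, 0% at ZT 5, 0% at ZT 9, 0% at ZT 13, 0% at ZT 17 and 0.0396% at ZT 21. In limma the members with an unadjusted p under 0.05 numbered 1, 0, 2, 0, 1 and 2 at these times, and voom weights called 0. The widest gut differences at single times were those of Per1, at log2 -0.65 at ZT 21 (adjusted p = 0.341) and 0.60 at ZT 9. At ZT 21 the gut Per1 values were 27.3, 38.1 and 23.007 with anti-Ly6G, against 53.9, 41.2 and 43.3 with IgG.

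Whether the antibody difference itself varied with time was tested by the treatment by ZT interaction, which no member passed. In bone marrow the smallest adjusted p was 0.217 (Per3), against 0.021% of genes passing, and 2 of 5 members had an unadjusted p under 0.05. In gut it was 0.421 (Per1; 0% of genes; 2 of 5 unadjusted). In liver it was 0.0943 (Cry1; 0.024% of genes; 3 of 5 unadjusted), and 0.00419 without the IgG library numbered 7, at ZT 9. Over all genes the unadjusted count was 1681 of 14289 in bone marrow, 1357 of 15158 in gut and 1256 of 12504 in liver. With voom weights the count of members was 0 in each of these tissues.

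No member had a differential rhythm with anti-Ly6G either, by the F test of the difference of the wave terms, and the count was also 0 with voom weights. In bone marrow 0.007% of genes passed, in gut 0% and in liver 0.008%. At an unadjusted p under 0.05 there were 2 members in bone marrow, 0 in gut and 1 in liver. Over all genes the unadjusted count was 553 of 14289 in bone marrow, 984 of 15158 in gut and 1149 of 12504 in liver. Bone marrow Per1 had a p of 0.000744 (adjusted p = 0.985) with an amplitude higher by 0.57 (SE 0.168). Bone marrow Per3 peaked at 8.05 h with anti-Ly6G and 10.9 h with IgG, a shift of -2.86 h (95% interval -4.51 to -1.21 h; adjusted p = 1.00). Liver Cry1 peaked at 17.4 h with anti-Ly6G and 18.8 h with IgG, a shift of -1.43 h (95% interval -2.22 to -0.64 h; p = 0.00348; adjusted p = 0.421). The shifts of Per2 were -0.37 h in gut (-1.15 to 0.40 h) and -0.37 h in liver (-1.10 to 0.37 h). In bone marrow, where its rhythm did not pass, Per2 had a shift of -3.86 h (-7.57 to -0.14 h; p = 0.140). Gut Cry2 had a shift of -1.17 h (-2.33 to -0.019 h; p = 0.0595; adjusted p = 0.791). The other shifts in these tissues had intervals that spanned 0.

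Other genes of the clock and of its inputs were read from lists of known members. In liver the genes that answer to glucocorticoids, a group to which Per1 also belongs, were counted beside it: 5 of 12 tested rose and 0 fell, with a list median of log2 0.44 against 0.00081 for all genes. Of all tested liver genes 0.776% passed as higher and 0.624% as lower. Those with the largest differences were the metallothioneins Mt2 (1.33) and Mt1 (1.21), Tsc22d3 (0.94), which encodes the anti-inflammatory protein GILZ, and the stress gene Ddit4 (0.70). The immediate early genes, which answer within minutes to many stimuli, had 0 of 7 higher and 2 lower, Junb (-0.43) and Ier2 (-0.32), with a median of -0.32. No gene of the clock activators and ROR receptors (5 tested), the REV-ERB repressors (2), the D-box binding factors (4), the accessory repressors (4), the kinases and ligases that act on PER and CRY (19) or the CREB targets (4) passed in liver, and their list medians lay between -0.16 and 0.071. The summed neutrophil markers were higher in liver, between 10.3 and 172.3 with anti-Ly6G and between 4.64 and 44.8 with IgG, with Lcn2 as the only one of 3 tested to pass (log2 1.48). The part of these markers, of the glucocorticoid targets or of the other lists in the Per1 difference was not tested.

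In bone marrow, 3 of 11 tested glucocorticoid targets rose and 2 fell, with a median of 0.057 against -0.0045 for all genes. Of all tested bone marrow genes 9.95% passed as higher and 7.16% as lower. Ddit4 (0.69), Tsc22d3 (0.54) and Fkbp5 (0.26) rose, and Dusp1 (-0.46) was among those that fell. Of 9 immediate early genes 1 rose and 4 fell, with Fos at -1.16, Junb at -0.47, Jun at -0.21 and Ier3 at 0.20 (median -0.15). Among the D-box binding factors Nfil3 (0.31) and Hlf (0.25) rose of 4 tested (median 0.12). Of 18 kinases, ligases and other modifiers of PER and CRY, Usp2 (0.35), Wdr5 (0.12) and Csnk1d (0.068) rose (median 7.3e-05). No activator or ROR gene (4 tested), REV-ERB gene (2), accessory repressor (4) or CREB target (4) passed, with medians between -0.078 and 0.0014. Of the 16 neutrophil markers 8 rose and 1 fell, and their sum ran from 29004 to 52030 with anti-Ly6G and from 25844 to 37125 with IgG. The 6 markers chosen to define bone marrow moved both ways, with 2 higher and 4 lower (median -0.29) and sums from 10183 to 18935 with anti-Ly6G and from 12962 to 18962 with IgG. Of 6 skeletal muscle markers 0 rose and 1 fell (median -0.49), with sums from 38.6 to 1649.8 with anti-Ly6G and from 157.65 to 1000.1 with IgG. The part of these 3 marker lists, of the glucocorticoid targets or of the other lists in the Per1 and Per3 differences was not tested. In gut no gene of any of these lists passed.

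Rhythms of those clock lists gave a frame for the members in bone marrow. Both REV-ERB genes cycled there under both treatments, with a median amplitude of 0.72 with anti-Ly6G and 0.71 with IgG. Of the D-box binding factors 2 of 4 cycled with anti-Ly6G and 2 of 4 with IgG (median amplitudes 0.20 and 0.26), and 1 of 4 activator and ROR genes did so under each treatment (0.17 and 0.16). The median amplitude of all genes was 0.073 with anti-Ly6G and 0.076 with IgG. In liver the REV-ERB median amplitude was 2.18 with anti-Ly6G and 2.28 with IgG.

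In iDTR ear skin Per1 and Cry1 rose and Per2 and Per3 fell against control, while 30.6% of all tested genes passed as higher and 32.4% as lower. Being called was therefore common in this comparison. In Bmal1-flox skin Per3 alone passed, as lower, against 3.21% of tested genes.

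Per3 had the clearest separation. It ranged from 41.4 to 92.0 with a median of 68.9 in iDTR, against 69.4 to 165.6 with a median of 110.5 in control libraries. The iDTR value was below the control value at 16 of 16 ZT. Means were 66.8 ± 13.3 in iDTR (SD, n = 16) and 115 ± 28.5 in control libraries (SD, n = 16), a fold of 0.59 (log2 -0.76, SE 0.0712; adjusted p = 4.62e-13 in limma).

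In Bmal1-flox skin Per3 ranged from 52.2 to 146.3 with a median of 90.3, against 69.4 to 165.6 with a median of 110.5 in control libraries. It was lower at 13 of 15 ZT, with a log2 difference of -0.30 (SE 0.0725; adjusted p = 0.00583), or -0.32 (adjusted p = 0.176) when no time term was fitted.

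Per1 ranged from 104.5 to 359.4 with a median of 214.5 in iDTR, against 76.7 to 300.3 with a median of 142 in control libraries. It was higher in iDTR at 12 of 16 ZT, and the ranges overlapped. The log2 difference was 0.52 (SE 0.156; adjusted p = 0.00325). In Bmal1-flox it was -0.19 (adjusted p = 0.563), with 119 as the median.

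Per2 ranged from 19.4 to 51.4 with a median of 36.8 in iDTR, against 23.4 to 84.7 with a median of 43.1 in control libraries (log2 -0.26, SE 0.0935; adjusted p = 0.0146). It was lower in iDTR at 11 of 16 ZT. With no time term the adjusted p was 0.261. In Bmal1-flox the log2 difference of Per2 was -0.24 (SE 0.0952), with a p of 0.0139 and an adjusted p of 0.135 in limma.

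Cry1 ranged from 31 to 78.6 with a median of 42.7 in iDTR, against 24.4 to 58.7 with a median of 38.5 in control libraries (log2 0.22, SE 0.0782; adjusted p = 0.0145). It was higher in iDTR at 13 of 16 ZT, and with no time term the adjusted p was 0.138. Cry2 did not pass, at -0.071 in iDTR (adjusted p = 0.299) and -0.0087 in Bmal1-flox (adjusted p = 0.959), and Cry1 was at 0.14 in Bmal1-flox (adjusted p = 0.374).

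**Figure D4:**
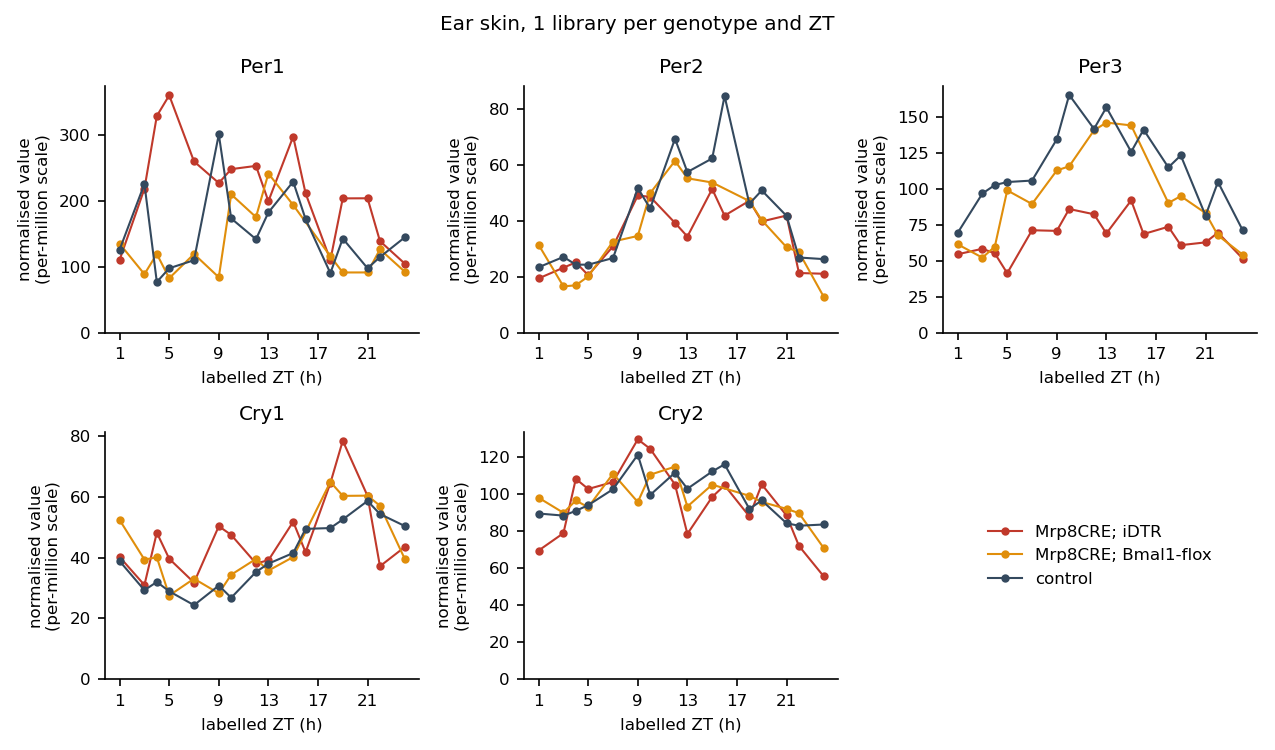
Normalised values on the deposited scale (vertical axes, starting at 0) of the 5 genes in ear skin against labelled ZT in hours, 1 library per genotype and ZT. Red is Mrp8CRE; iDTR, orange Mrp8CRE; Bmal1-flox and dark blue control. The iDTR line of Per3 lies below the control line at all 16 times, and Per2, Per3 and Cry1 rise and fall in every genotype.

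The other clock genes also moved in iDTR skin, in both directions. Among the clock activators and their regulators were Clock (log2 0.13), which rose, and Rora (-0.32) and Npas2 (-0.22), which fell, given as examples without the count of that list. The median of all genes was -0.017. The repressor gene Nr1d1, encoding REV-ERB alpha, rose by 1.28, 1 of 2 tested (median 0.69). Of the D-box binding factors Nfil3 (0.77) rose and Tef (-0.46) and Hlf (-0.35) fell of 4 tested (median -0.037). Among the accessory repressors Bhlhe40 (0.99), Ciart (0.43) and Bhlhe41 (0.28) rose and Cipc (-0.15) fell (median 0.35). Of 19 modifiers of PER and CRY, 9 rose and 5 fell (median 0.056), with Timeless at 0.90, Prkaa2 at -0.49, Wdr5 at 0.41 and Fbxl21 at -0.40. Immediate early genes rose in 8 of 11 and fell in 0 (median 0.98), among them Egr1 (1.99), Atf3 (1.60), Jun (1.60) and Junb (1.31). Of 11 glucocorticoid targets 2 rose, Mt2 (1.36) and Mt1 (1.09), and 2 fell, Tsc22d3 (-0.71) and Ddit4 (-0.37), with a median of 0.066, and 3 of 6 CREB targets rose (median 0.21).

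The makeup of the iDTR libraries differed as well. All 6 skeletal muscle markers were lower, with a summed median of 2517 in iDTR, 3584 in Bmal1-flox and 3225 in control libraries. Of 7 tested neutrophil markers 6 were higher and 1 lower, with sums between 66.6 and 165.7 in iDTR and between 31.1 and 67.6 in control libraries. The part of these markers, or of the gene lists above, in the differences of the members was not tested. In Bmal1-flox skin Npas2 (0.44) was the only one of 5 activators and ROR genes to pass, against 2.41% of all tested genes passing as higher, and no gene of the other lists of clock genes, hormone targets and immediate early genes did.

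The lung labels are in doubt. Of the libraries labelled ZT 5 with anti-Ly6G, 1 had 27.2 for Per3 while the others had 137 and 144. The libraries whose titles carry the numbers 1, 2 and 3 were labelled anti-Ly6G at ZT 5, 13 and 17, yet were alike, with 13.8, 18.8 and 18.0 for Per2 and 27.2, 27.97 and 27.8 for Per3. Per2 in the other libraries of their labelled groups read 189 and 187, 78.6 and 61.8, and 48.4 and 52.6. By labels, limma gave peaks of 1.91 h with anti-Ly6G and 5.21 h with IgG for Per3, 5.33 and 7.69 h for Per2, and 10.7 and 12.6 h for Cry1, earlier than the same genes in gut and liver. The order of the 3 genes was nonetheless the same, and 3 of 5 members passed as rhythmic with anti-Ly6G (12.7% of tested genes) and 5 of 5 with IgG (11.2%).

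**Figure D5:**
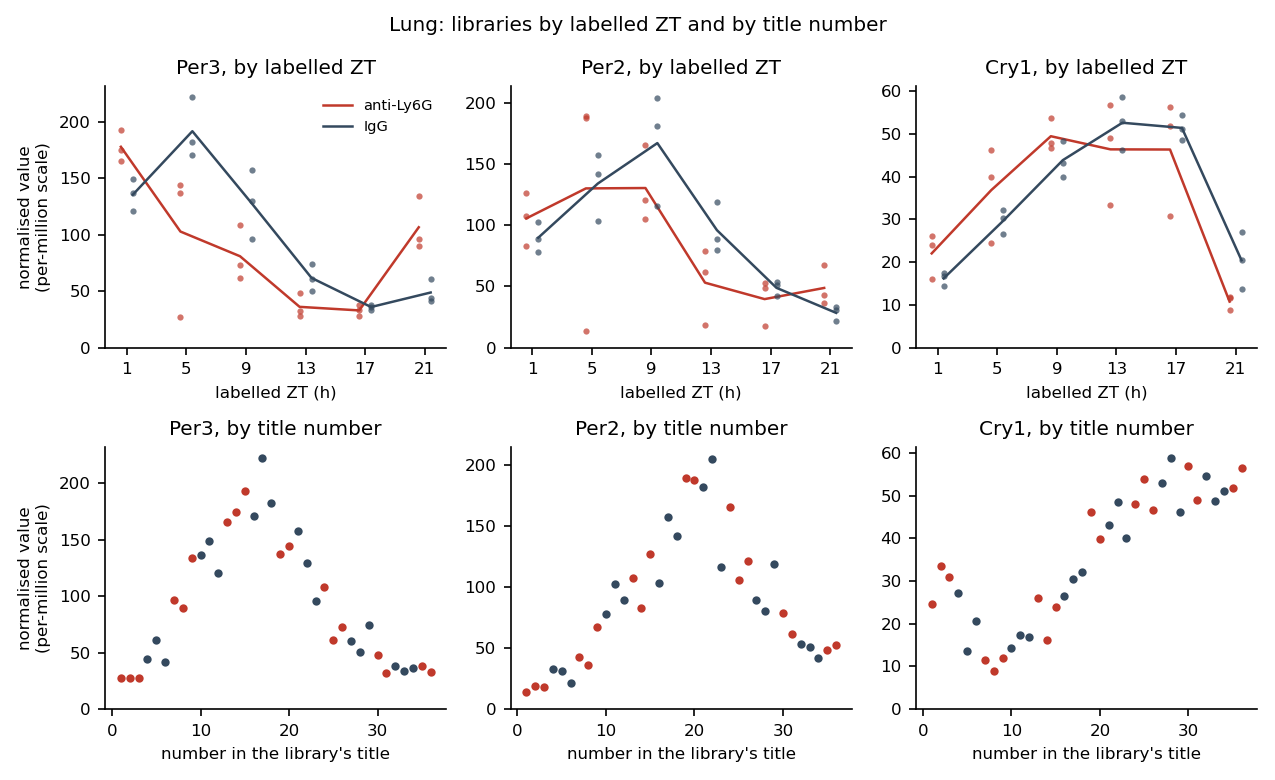
Lung values of Per3, Per2 and Cry1 on the deposited scale (vertical axes, starting at 0), above by labelled ZT in hours and below by the number in each library's title. Points are libraries, lines in the upper row join means of 3; red is anti-Ly6G and dark blue IgG, as labelled. By title number both label colours mix along each wave, and by labelled ZT the anti-Ly6G library titled 1 lies far below the others of ZT 5 for Per3 (27.2 against 137 and 144) and Per2 (13.8 against 189 and 187).

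Read instead in the numbering that the bone marrow, gut and liver titles share, 36 of 36 lung libraries would have another ZT and 28 another treatment. The pooled SD of libraries within a group and time was then 0.28 (log2) for Per2, against 0.78 by labels, and 0.20 for Per3, against 0.47 by labels. In that numbering Per3 peaked at 8.94 h (anti-Ly6G numbers) and 10.4 h (IgG numbers), Per2 at 11.6 and 13.2 h and Cry1 at 16.6 and 17.7 h. The values under that numbering are given as a description, and the numbering was chosen after the data were seen.

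For that reason the lung treatment difference is given without a reading. By labels no member passed, against 0% of tested genes, with Per1 at log2 -0.69 (adjusted p = 0.355) and Cry2 at -0.17 (adjusted p = 0.407). By limma 2 of 5 members had an unadjusted p under 0.05, and with voom weights 0 passed. In the title numbering, chosen after the data were seen, Per1 was at 0.85 and Cry2 at 0.15, opposite in sign to the values by labels. These values are a description only. By labels no member passed the interaction, where Per3 had an adjusted p of 0.0536 and 1.11% of genes passed. There 2 of 5 members and 2072 of 15641 genes had an unadjusted p under 0.05. Nor did any member pass the differential rhythm, where Per3 had an adjusted p of 0.133 and 0.0511% of genes passed. In that test 1 of 5 members and 1717 of 15641 genes had an unadjusted p under 0.05.

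The genes whose patterns were most like each member were read from the IgG libraries of bone marrow, gut and liver, as the mean of the Pearson r within each tissue (54 libraries, 11209 genes tested in all 3). The libraries share their times and depth, so these are descriptions. For Per3 they were Tef (mean r 0.94), Dbp (0.86) and Nr1d2 (0.84). For Per2 they were Fam102a (0.83), Upf1 (0.81) and Pdxk (0.76), and for Cry1 Fkbp4 (0.76), Ube2g2 (0.74) and Stip1 (0.74). Likeness was lower for Per1, with Tsku (0.66), Bhlhe40 (0.64) and Tef (0.62), and for Cry2, with Usp2 (0.58), Wee1 (0.56) and Mapre2 (0.55), whose r in bone marrow was between 0.12 and 0.26. Per3 followed Tef at r = 0.84 in bone marrow, 0.99 in gut and 0.99 in liver. Tef encodes 1 of the proteins that bind the D-box, the motif found at 2 places in the Per3 promoter printed above. Whether TEF acts on Per3 in these tissues was not tested.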

How the data were processed

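The labels' protocols describe 200 ng of RNA per library, made with an unstranded kit and sequenced as 50-nt single reads, with adaptors removed by Cutadapt 1.7.1 and transcripts of GRCm38 (Ensembl 84) quantified by RSEM 1.2.20 and Kallisto 0.43.1. The submitters' processing notes also name limma 3.46. The deposited values are a normalised signal per gene, 1 table per tissue, made by the authors by a method not given in the sources used here. They behave as (estimated count + 0.5) over a scaled library size. Reads recovered from the steps were whole (within 0.005) for 29.7% to 44.5% of values, so no count test was used. Genes with a tissue mean of at least 1 were tested on log2(value + 1) with limma 3.58.1 in R 4.3.3 and Benjamini-Hochberg adjustment over all genes of the tissue, at 0.05. Antibody differences had ZT as a factor, and skin differences a shared 24 h wave. Rhythms were 24 h waves per group. A fold is on the log2(value + 1) scale and understates the change of low genes. The members, the gene lists and the rule for naming genes (the largest differences of each list, and the 3 most similar genes of each member) were chosen with earlier results of these data known. The skin table had 1 row with no gene name, left out. The p-values weigh a difference against the spread between libraries that the model leaves. In skin, with 1 library per genotype and ZT, that spread also holds what the fitted 24 h wave does not follow. The model code was tested on simulated data. Alternatives were other pseudocounts, filters and scalings, voom weights, other time terms, a replicate block, and leaving out each library or ZT. The result of 1 listed gene is not reported here.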

Additional observations from a re-analysis of the deposited data

Results flagged for a closer look

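In liver, Cry1 differed in opposite directions between times, with every anti-Ly6G library below every IgG library at ZT 1 (log2 difference -0.56) and above at ZT 13 (0.68). The treatment by ZT interaction in limma had an adjusted p of 0.0943. Genes were flagged here because their libraries separated in opposite directions at different times. How many of all genes did so was not counted, so the separation itself is only a description.

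In gut, every anti-Ly6G library was above every IgG library for Per1 at ZT 17 (0.53) and below at ZT 21 (-0.65), with an interaction adjusted p of 0.421.

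In lung, by labels that are in doubt, Per2 was below at ZT 13 (-1.05) and above at ZT 21 (0.73), with an interaction adjusted p of 0.678. Per3 was above at ZT 1 (0.39) and ZT 21 (1.11), and below at ZT 5 (-1.21) and ZT 13 (-0.78), with an interaction adjusted p of 0.0536.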

How the results depend on the processing

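Counts of members called changed under these settings, and the cause was not tested. The bone marrow difference had 1 call, against 2, with no time term, without ZT 1 and without ZT 5. The bone marrow anti-Ly6G rhythm had 1 without ZT 5, 1 without ZT 9 and 0 without ZT 21, against 2. The liver difference had 0, against 1, with no time term and with a 24 h wave. With no time term the Bmal1-flox difference had 0, against 1, and the iDTR difference 2, against 4. In lung, the interaction had 1, against 0, with a pseudocount of 5, a mean of at least 4, quantile normalization and without ZT 5, and 2 without the libraries titled 1, 2 and 3. The lung differential rhythm had 1, against 0, with 24 h and 12 h waves, without ZT 5, without ZT 17 and without those libraries. The lung IgG rhythm had 3 without ZT 21, against 5. By the numbering of the titles, an alternative chosen after seeing the data like the one without those libraries, the lung anti-Ly6G rhythm had 5, against 3, and the lung difference 2, against 0. That numbering turned the sign of Per1 (0.85; 1.58 at ZT 1 and 1.47 at ZT 5), Cry2 (0.15; 0.43 at ZT 5) and Per2 at ZT 5 (0.91). Leaving out 1 library at a time gave 0 to 1 calls in the liver interaction (1 without the IgG library numbered 7), the lung interaction (1 without the anti-Ly6G library numbered 5, for example) and the lung differential rhythm. A replicate block gave 0 calls in gut, 4 in iDTR and 1 in Bmal1-flox skin, and changed no call. Libraries of compared groups with the same replicate number in their titles had correlations of deviations between -0.221 and 0.184 in gut. Against control skin they ran from -0.188 to 0.277 for iDTR and from -0.15 to 0.138 for Bmal1-flox. The gut deviations were taken from means of 3 libraries, and such values cannot show whether these libraries share more than a number. Depth limits the lowest values, such as liver Per1 at ZT 1.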
